A study of Drosophila melanogaster with 4 samples.

Results

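Heat shock proteins and other chaperones were followed in Drosophila melanogaster embryos mutant for dsap18, the gene that encodes dSAP18. The 10 genes used were chosen by name: Hsp23, Hsp26, Hsp27, Hsp70Bc, Hsp83, Hsp60A, Hsc70-3, Hsc70-4, Hsc70-5 and DnaJ-1. A gene was kept when a spot named for it had a value on at least 1 array of each biological replicate. This held for 8 of the 10 genes, among 5752 genes of the whole data set that met the same condition. No spot was named for Hsp23 or Hsp83 in the annotation used, so their levels were not analysed here. The 8 genes had 24 spots with values, of 41 spots named for them. All 8 also had a value on all 4 arrays, the condition for the gene test, which 4312 genes met.

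The mutant embryos (w1118 background) carried the allele dsap18-117, a null mutation made by mobilising the P element EP(3)3462, over Df(3R)sbd45, a deficiency that removes dsap18. The control embryos had this same allele over the same deficiency and, in addition, a dsap18-HA rescue transgene, so the mutation and the deficiency were shared by both groups. The transgene was placed on the X chromosome by the labels of 3 arrays and on chromosome 2 by the label of the fourth, although that array and its dye swap shared 1 amplified RNA. RNA came from whole embryos collected over 0 to 24 h at 25 °C, so each sample mixed all stages of embryogenesis, and a lower share of cells that express a gene cannot be told apart from less RNA per cell. Mutant and control RNA were compared on the same array, in 2 biological replicates of 2 arrays each, with the dyes swapped between the arrays of a replicate. The 4 arrays had values for 39.8% to 48.6% of 16416 spots. Only ratios were used, so absolute levels, and with them the presence of embryo markers, could not be read. The targeted gene, Bin1 in current naming, had 0 named spots, so the labels could not be checked against it.

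Chaperones bind unfolded or partly folded proteins and help them to fold, to assemble or to cross membranes. Small heat shock proteins such as Hsp26 and Hsp27 hold unfolded proteins in a soluble state. Hsp70 proteins then bind and release such clients in cycles of ATP hydrolysis that J-domain proteins such as DnaJ-1 stimulate, and barrel-shaped chaperonins such as Hsp60A enclose a client while it folds. Heat and other stress switch on the small heat shock genes and the inducible Hsp70 genes through the heat shock factor Hsf, whereas the Hsc70 genes are cognates expressed without stress. In flies the small heat shock genes are also transcribed during development, among other places in the germ line of the ovary.

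The values below are log2 ratios of the 2 channels as the authors deposited them. Their direction is not stated, and mutant over control is taken as the likely one, since the design text sets mutant RNA against the control as a common reference. Were it the other way round, all signs below would turn with no change of size. The log base, also unstated, was taken as 2. Errors are the SD of the 2 replicate means (n = 2), and adjusted p-values come from limma, fitted over all 4312 genes. Nothing in the labels says that the 2 extractions came from separate crosses, so the p-values concern these samples only. They rest mostly on a spread pooled over genes (48.9 prior degrees of freedom beside 1 residual) and little on a gene's own replicate spread.

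The small heat shock genes Hsp26 and Hsp27 and the inducible Hsp70 gene Hsp70Bc had positive ratios on all 4 arrays. Hsc70-5, Hsp60A and Hsc70-3, whose proteins work in mitochondria or in the endoplasmic reticulum (ER), had negative ratios on all 4 arrays. The constitutive cytosolic Hsc70-4 and the heat-inducible J-domain gene DnaJ-1 lay near 0 with mixed signs, so the heat-inducible members did not share 1 direction. Of the 8 genes 3 passed the limma test with a positive ratio (11.4% of all genes did so), 1 passed with a negative ratio (11.8% of all genes), and 4 did not pass. Together 4 of 8 passed, where 23.2% of all genes did, and the same 4 passed among the 5752 genes of the wider set, where 23.1% did. The members were chosen with earlier results of these data known, so these shares are a description with no test. The same sign on all 4 arrays was seen for 6 of the 8, against 63.1% of all genes. No member changed more than 2-fold with 1 sign throughout, as 0.835% of all genes did. The median of the 8 was 0.080, beside 0.0095 for all genes tested, with positive and negative members on either side. The p-values rest on a variance pooled over genes, since each gene has 1 residual degree of freedom.

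**Figure D1:**
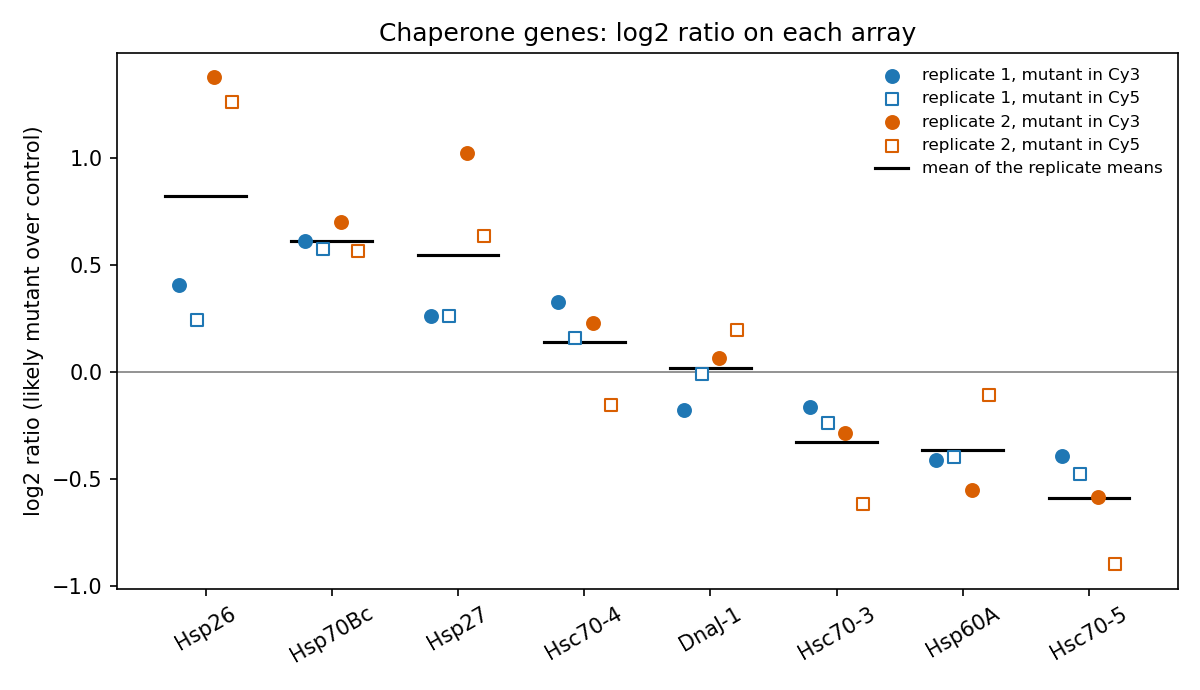
Log2 ratio (vertical axis, likely mutant over control) of the 8 chaperone genes on each of the 4 arrays, with replicate 1 in blue, replicate 2 in orange, filled circles for the mutant in Cy3 and open squares for the mutant in Cy5. Black bars are the means of the replicate means, which run from 0.82 for Hsp26 to -0.59 for Hsc70-5.

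Among the small heat shock genes, Hsp26 (NCBI gene 39075, chromosome arm 3L) had log2 ratios of 0.41 and 0.24 in replicate 1, and in replicate 2 they were 1.38 and 1.26. All 4 values were positive, and those of replicate 2 did not overlap with those of replicate 1. The mean was 0.82 ± 0.70 (SD, n = 2), a 1.77-fold higher level in the mutant in the likely direction (limma adjusted p = 7.24e-04, 95% interval 0.47 to 1.18). This interval rests mostly on the variance pooled over genes, and both replicate means, 0.33 and 1.32, lay outside it. Without moderation the limma adjusted p was 0.554. Hsp26 was the highest of the 8 genes and ranked 33rd of 4312 genes. Its size depended on the replicate: it was 1.25-fold in replicate 1, where it ranked 545th, but beyond 2-fold in replicate 2, where it ranked 10th. Only 36 genes, or 0.835% of those tested, differed more between the replicates.

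Hsp27 (NCBI gene 39078, 3L) had 0.26 on both replicate 1 arrays, and in replicate 2 it had 1.03 and 0.64. It followed the same order of replicates as Hsp26, at a lower level. Its mean of 0.55 ± 0.40 was 1.46-fold (limma adjusted p = 0.0137, 95% interval 0.21 to 0.88). From replicate 1 alone the values were 0.33 for Hsp26 and 0.26 for Hsp27. The log2 ratio in replicate 2 was 4.05 times that in replicate 1 for Hsp26 and 3.17 times for Hsp27, while the SD of the ratios over all genes was 1.80 times as wide in replicate 2 (0.50 and 0.28).

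Hsp26 and Hsp27 lie in one cluster of small heat shock genes on 3L, and in the Release 6 RefSeq gene order Hsp67Ba, an antisense RNA gene and Hsp23 stand between them. None of these 3 had a named spot. On the Hsp26 side, Hsp22 and Hsp67Bc had none either. The small heat shock gene CG4461 had a value on 1 array only (0.085, in replicate 2 with the mutant in Cy3). Beyond the cluster on the Hsp27 side, CG4080 had 0.37, 0.08, 0.0063 and -0.14 on the 4 arrays in the same order, and eIF4E1, a translation initiation factor gene, had -0.09, -0.04, 0.06 and 0.02. In replicate 2 the highest value of CG4080 and eIF4E1 was 0.06, and the 1 value of CG4461 was 0.085. Hsp26 and Hsp27 were at 0.64 or higher on both arrays of replicate 2. In replicate 1 with the mutant in Cy3, CG4080 (0.37) lay above Hsp27 (0.26) and below Hsp26 (0.41). With the mutant in Cy5 it lay below both (0.08, beside 0.26 for Hsp27 and 0.24 for Hsp26). The cuticle gene Cpr67B, next to eIF4E1 in the gene order, was negative on all 4 arrays, between -0.53 and -0.19. Outside the cluster, l(2)efl, which encodes an alpha-crystallin type small heat shock protein, was at -0.07 ± 0.01 and did not pass (limma adjusted p = 0.777).

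Hsp70Bc (NCBI gene 48583, 3R) encodes an inducible Hsp70, one of several near-identical gene copies. It had mean log2 ratios of 0.61 and 0.58 in replicate 1 and of 0.70 and 0.57 in replicate 2, each over 17 spots. All 4 arrays lay close together and the replicates overlapped. The mean was 0.61 ± 0.03 (SD, n = 2), a 1.53-fold difference (limma adjusted p = 0.0045, 95% interval 0.29 to 0.94). The replicate SD was smaller in only 9.32% of all genes. Hsp70Bc is a mean over 17 spots, however, and only 108 of the 4312 genes had more than 1 spot. Since ratios in general were wider in replicate 2, the gene ranked 54th in replicate 1 and 366th in replicate 2. This was the opposite of Hsp26, whose rank was much higher in replicate 2.

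The 17 Hsp70Bc spots are technical repeats on each array and share its RNA. On the array of replicate 1 with the mutant in Cy3 they ran from 0.54 to 0.70, and with the mutant in Cy5 from 0.46 to 0.66. In replicate 2 they ran from 0.63 to 0.77 with the mutant in Cy3 and from 0.49 to 0.66 with the mutant in Cy5. No spot was at or below 0 on any array, and the SD over spots was between 0.038 and 0.055. Spot by spot, all 17 passed the limma test fitted over 4501 spots, with a largest adjusted p of 0.0066. Of the spots, 16 stand in 4 runs of consecutive spot numbers, the same arrangement as for Gapdh1, eIF4A and Nup154, which had 17 spots each as well. The remaining Hsp70Bc spot, outside these runs, gave a mean of 0.69, and its 4 values lay between 0.66 and 0.77.

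The other inducible Hsp70 genes did not give the same picture. The spot named for Hsp70Ba had values on the arrays of replicate 1 only, -0.06 and -0.12, and no value in replicate 2. The spots named for Hsp70Ab, Hsp70Bb, Hsp70Bbb and Hsp68, and the spot shared by Hsp70Aa and Hsp70Ab, had no value on any of the 4 arrays. Since the copies are near-identical, the Hsp70Bc spots cannot be assigned to that copy alone. Why these spots differed in having values was not tested.

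**Figure D2:**
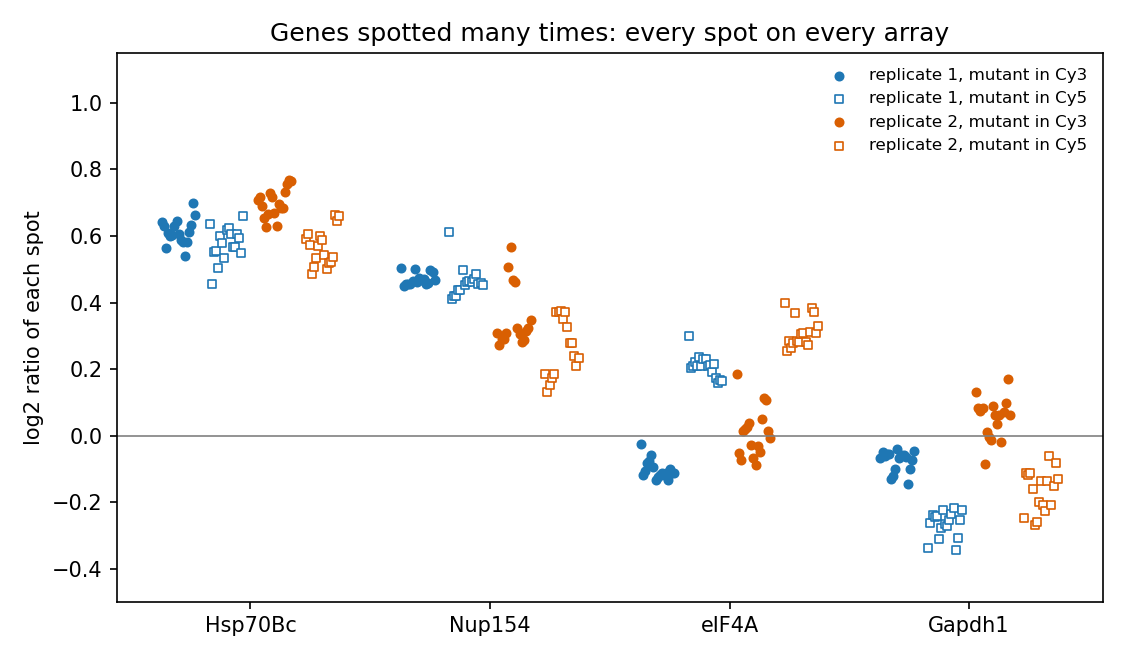
Log2 ratio (vertical axis) of every spot of Hsp70Bc and of 3 further genes spotted 17 times (Nup154 with 16 spots on all arrays), by array, with replicate 1 in blue, replicate 2 in orange, filled circles for the mutant in Cy3 and open squares for the mutant in Cy5. Hsp70Bc spots stay above 0.45 on every array, while eIF4A and Gapdh1 shift between the dye-swapped arrays of each replicate.

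The dye-swapped arrays of a replicate differed in part. All 4 columns correlate positively across spots, so none was turned. A part of the difference between swapped arrays was shared by the replicates, with r = 0.50 across the 4312 genes (genes are not independent replicates). For eIF4A, a translation factor gene, the array with the mutant in Cy3 was lower than its swap by 0.31 and 0.30 in replicates 1 and 2 (-0.31 and -0.30 as differences). For Gapdh1, a glycolytic gene, it was higher by 0.19 and 0.22. For Hsp70Bc these differences were 0.04 and 0.13, for Hsp26 0.17 and 0.11, and for Hsp27 0.00042 and 0.39. In size they were below the mean ratio in all 3 of these genes and in Hsc70-5 (0.08 and 0.31, mean -0.59). In replicate 2 they exceeded the mean in size for Hsp60A (-0.44, mean -0.37), Hsc70-3 (0.331, mean -0.326) and Hsc70-4 (0.38, mean 0.14). For DnaJ-1 both, -0.17 and -0.13, exceeded in size its mean of 0.019. The cause of these differences was not tested. In the median gene the swapped arrays differed in size by 0.10 in replicate 1 and 0.13 in replicate 2.

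Of the other cytosolic chaperones, Hsc70-4 (NCBI gene 41840, 3R), the main cognate Hsp70 of the cytosol, had 0.33 and 0.16 in replicate 1 and 0.23 and -0.15 in replicate 2. Its mean of 0.14 ± 0.15 did not pass (limma adjusted p = 0.562, 95% interval -0.18 to 0.46). The swapped arrays differed by 0.17 and 0.38, and the sign of the last array went against the other 3. DnaJ-1 (NCBI gene 38643, 3L), a J-domain partner of Hsp70 that is itself heat-inducible, had -0.18 and -0.0089 in replicate 1 and 0.07 and 0.20 in replicate 2. The replicates had opposite signs, and the mean of 0.019 ± 0.16 did not pass (limma adjusted p = 0.946, 95% interval -0.31 to 0.34). Its sign turned to -0.0033 with the arrays scaled to equal spread and to -0.057 from only the 2 arrays that had the mutant in Cy3. DnaJ-1 thus did not share the ratios of Hsp26, Hsp27 and Hsp70Bc, although it is also induced by heat.

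In the ER, Hsc70-3 (NCBI gene 32133, X), the fly BiP, which folds secreted and membrane proteins and restrains the sensors of ER stress, had -0.16 and -0.24 in replicate 1 and -0.29 and -0.62 in replicate 2. All 4 values were negative. The mean of -0.33 ± 0.18 did not pass (limma adjusted p = 0.137, 95% interval -0.65 to -0.0016). It passed in 4 alternative settings, among them the 4 arrays taken as independent samples (adjusted p = 0.0248) and only the arrays that had the mutant in Cy5 (adjusted p = 0.037). The independent-sample setting, like that with a dye term (limma adjusted p = 0.0452), counts the swapped arrays of 1 RNA as separate samples. With the arrays of each replicate kept as a block, Hsc70-3 did not pass (limma adjusted p = 0.1085).

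In mitochondria, Hsc70-5 (NCBI gene 36583, 2R), the Hsp70 of the mitochondrial matrix that draws imported proteins inward and helps them to fold, had -0.39 and -0.48 in replicate 1 and -0.58 and -0.90 in replicate 2. Both replicates were negative on both arrays and did not overlap. The mean of -0.59 ± 0.22 was a 1.50-fold lower level in the mutant in the likely direction (limma adjusted p = 0.0068, 95% interval -0.91 to -0.26). From only the arrays that had the mutant in Cy3 the mean was -0.49 and the call was lost (adjusted p = 0.0585).

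Hsp60A (NCBI gene 32045, X), the chaperonin that receives matrix proteins after the mitochondrial Hsp70, had -0.41 and -0.40 in replicate 1 and -0.55 and -0.11 in replicate 2. Its mean of -0.37 ± 0.05 did not pass (limma adjusted p = 0.0906, 95% interval -0.69 to -0.04). In 3 alternative limma settings it passed (adjusted p of 0.0152 to 0.0322). They were the 4 arrays as independent samples, a dye term, and arrays scaled to equal spread. The independent-sample and dye-term settings count the swapped arrays of 1 RNA as separate samples. With the arrays of each replicate kept as a block, Hsp60A did not pass (limma adjusted p = 0.0954). The replicate means were close, at -0.40 and -0.33, but the swapped arrays of replicate 2 differed by -0.44. These values rest on 1 of 18 spots named for Hsp60A. The other 17 had no value on any array, including 16 spots that stand in 4 runs of consecutive numbers like those of Hsp70Bc.

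On each array the lowest of Hsp26, Hsp27 and Hsp70Bc lay above the highest of the organelle genes Hsc70-3, Hsp60A and Hsc70-5. The gap between them was 0.42 and 0.48 in replicate 1, and it was 0.99 and 0.67 in replicate 2. Over the replicates Hsp26, Hsp27 and Hsp70Bc had means from 0.55 to 0.82, and the organelle genes from -0.59 to -0.33. DnaJ-1, though heat-inducible, is not among these 3 genes, and on the replicate 1 array with the mutant in Cy3 its -0.18 lay below the -0.16 of Hsc70-3. The genes were grouped with these results known, so the separation is a description with no test.

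**Figure D3:**
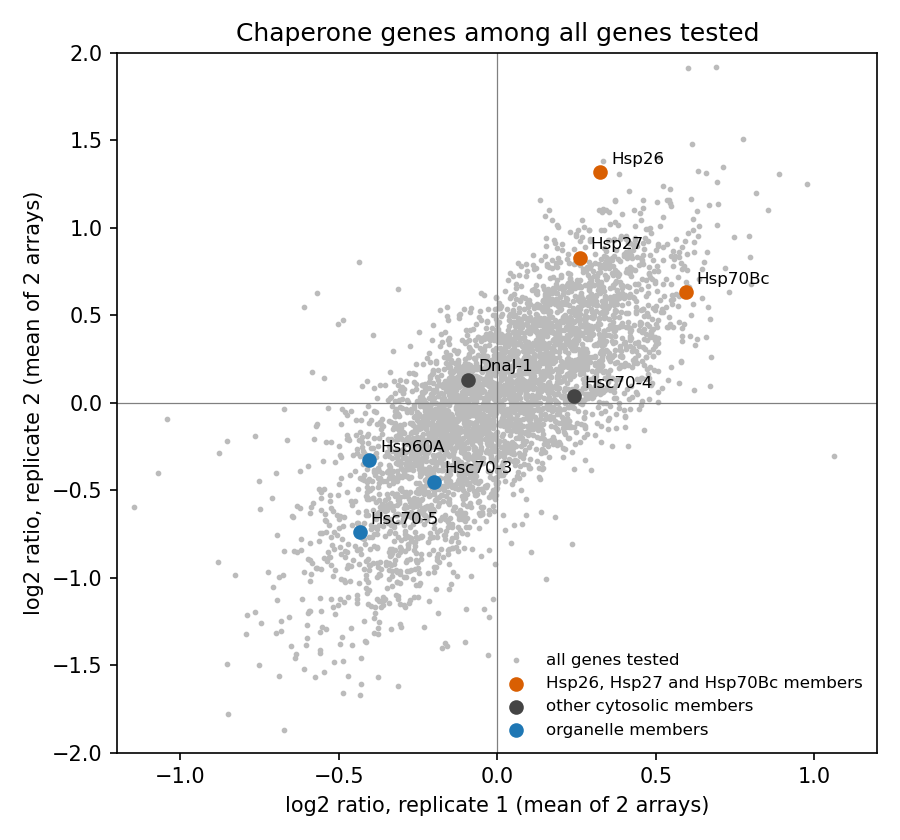
Log2 ratio in replicate 2 (vertical axis) against replicate 1 (horizontal axis), each the mean of 2 arrays, for all 4312 genes in grey and the 8 chaperone genes in colour. Hsp26, Hsp27 and Hsp70Bc lie at the upper right, with Hsp26 far above its place in replicate 1 and Hsp70Bc nearly equal in both, the organelle members lie at the lower left, and 10 genes fall outside the axes.

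The genes whose 4 array values lay nearest to those of Hsp26, by Euclidean distance over the 4 arrays, were Prosbeta3, a proteasome core subunit gene, at a distance of 0.12, His2B:CG17949, a histone gene, at 0.17, and CG7498 at 0.26. Their mean ratios were 0.86, 0.85 and 0.77. Nearest to Hsc70-5 were CG10591 at 0.17, the chitin deacetylase gene serp at 0.18 and CG31522 at 0.18, with means of -0.60, -0.63 and -0.65. With 2 replicates and 4312 genes, such nearness describes these arrays only.

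The wider chaperone network was described through 8 lists of 118 further genes, of which 63 had values on all 4 arrays. Of these 63, 6 passed the limma test with a positive ratio, 2 with a negative one, and 55 did not pass, with a median of -0.03. The shares of all genes that passed, 11.4% positive and 11.8% negative, give the scale for these counts and for those of each list below. The lists were chosen with earlier results of these data known.

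Among network genes with values on all 4 arrays, the co-chaperones of Hsp70 and Hsp90 held the highest and the lowest mean. Of 12 measured genes 2 passed with a positive ratio, 1 with a negative ratio and 9 did not pass. The median was 0.27, with 0.13 in replicate 1 and 0.34 in replicate 2. STUB1 encodes the ubiquitin ligase that marks clients of Hsp70 and Hsp90 for degradation, and it was at 0.70 in replicate 1 and 1.14 in replicate 2. Its mean of 0.92 ± 0.31 was 1.89-fold (limma adjusted p = 7.46e-05). HIP, which encodes a protein that stabilises Hsp70 in its client-bound state, stood at the opposite end, at -0.54 in replicate 1 and -1.29 in replicate 2. Its mean was -0.92 ± 0.53 (limma adjusted p = 1.19e-04). The related gene HIP-R had a mean of 0.39 and did not pass (limma adjusted p = 0.0746). The cyclophilin gene Cyp40 passed at 0.44 ± 0.17 (limma adjusted p = 0.0432). The Hsp90 partner genes Sgt1 (0.24) and p23 (-0.12) and the ER Hsp90 gene Gp93 (-0.14) did not pass.

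J-domain genes other than DnaJ-1 had a median of 0.17, and 6 of 18 means were negative, where 49.1% of all genes had a negative mean. Of these 18, 3 passed with a positive ratio and none with a negative one, where 11.4% and 11.8% of all genes did. The 3 were CG6693 (0.74 ± 0.48, limma adjusted p = 0.0014), CG2790 (0.45 ± 0.21, adjusted p = 0.0356) and mrj (0.45 ± 0.32, adjusted p = 0.0392). The lowest was P58IPK, a J-domain partner of BiP in the ER, at -0.38 ± 0.19, which did not pass (limma adjusted p = 0.0804). Hsf itself, the regulator of the heat shock genes, was at 0.16 in both replicates (0.16 ± 0.0067) and did not pass (limma adjusted p = 0.497).

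Beside Hsc70-3, 8 measured genes of ER folding had a median of -0.15 (replicate 1 alone gave -0.09 and replicate 2 alone -0.23), and 6 of them had a negative mean, against 49.1% of all genes. Cnx99A, a calnexin that holds glycoproteins in the ER, passed with a negative ratio of -0.65 ± 0.43 (limma adjusted p = 0.0039), and the other 7 did not pass. Among these were Grp170, an exchange factor of BiP, at -0.30, and the protein disulfide isomerase gene Pdi at -0.17. Beside Hsp60A and Hsc70-5, the mitochondrial list had 6 measured genes with a median of -0.11 (replicate 1 alone gave -0.012 and replicate 2 alone -0.09). The protease gene ClpP passed with a positive ratio of 0.50 ± 0.46 (limma adjusted p = 0.0264). The Hsp60 cap gene CG11267 (-0.31 ± 0.26) and Roe1 (-0.32 ± 0.53), the exchange factor of mitochondrial Hsp70, did not pass.

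The chaperonin TRiC, which folds actin and tubulin in the cytosol, gave small ratios of 1 sign. All 8 subunit genes, CCT1 to CCT8, had negative means in both replicates, with means over the replicates from -0.31 (CCT8) to -0.09 (CCT4), and 6 of them were negative on all 4 arrays. None passed the limma test. Across all genes 39.0% were negative in both replicates, and 63.1% had the same sign on all 4 arrays, in either direction. The 6 genes of prefoldin, which hands clients to TRiC, were split with 3 positive and 3 negative means and none passed. The split of TRiC from prefoldin was made after the values were seen.

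**Figure D4:**
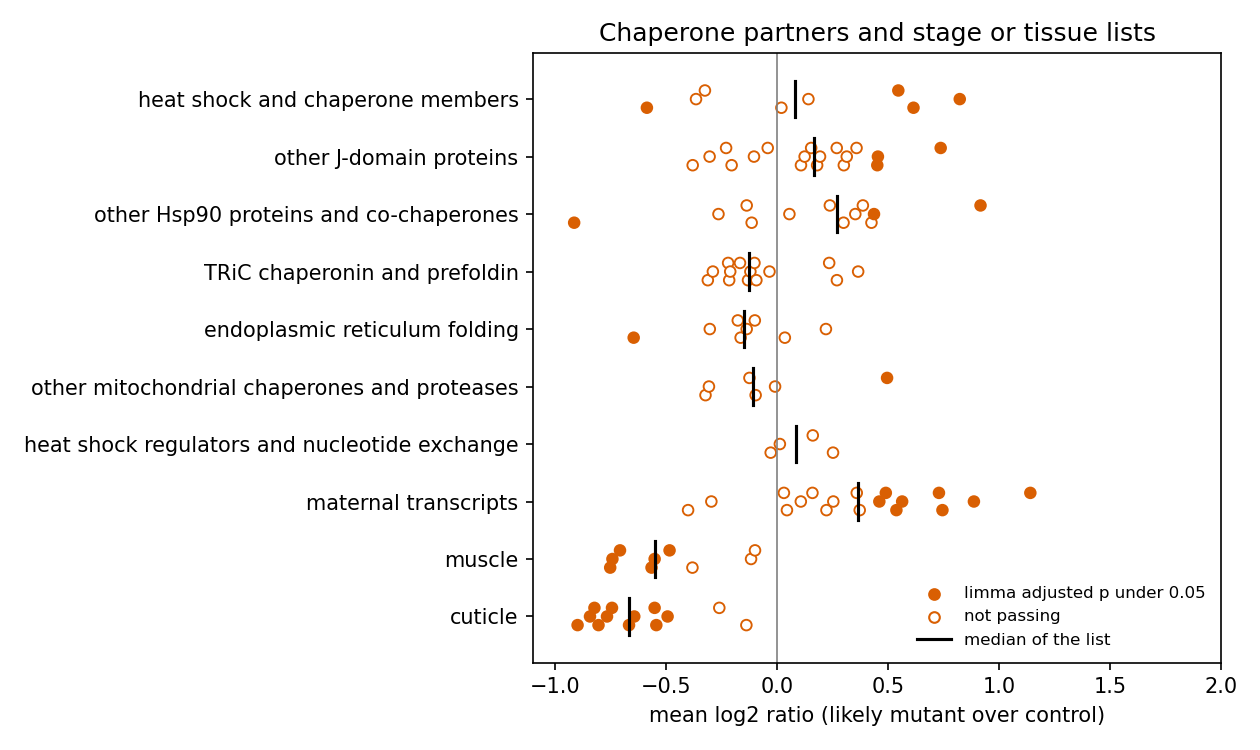
Mean log2 ratio (horizontal axis, likely mutant over control) of each measured gene in the chaperone members, in 6 of the 8 chaperone network lists and in 3 stage or tissue lists, with filled points for genes past the limma test and black bars for list medians. The lists of TRiC with prefoldin, ER and mitochondrial genes have medians slightly below 0 (-0.13, -0.15 and -0.11) and genes on both sides of it. Co-chaperones spread from -0.92 to 0.92. The maternal list has a median above 0, while the muscle and cuticle lists sit below it.

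Lists of early and late transcripts of embryogenesis, chosen with earlier results of these data known, differed as well. Of 18 maternal transcripts, which the mother loads into the egg, 8 passed with a positive ratio and none with a negative one. Of all genes 11.4% passed with a positive and 11.8% with a negative ratio. The maternal transcripts had a median of 0.37 and a range of -0.40 to 1.14. Of 9 muscle genes 6 passed, each with a negative ratio. Their median was -0.55, with a range from -0.75 to -0.10. Of 13 cuticle genes 11 passed, each with a negative ratio, and the median was -0.67, with a range from -0.90 to -0.14. Replicate 2 had the wider medians in the maternal (0.30 in replicate 1, 0.45 in replicate 2), muscle (-0.25 and -0.83) and cuticle lists (-0.37 and -0.90). The SD of the ratios over all genes was also 1.8 times as wide in replicate 2. The part of embryonic stage in the chaperone ratios was not tested.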

How the data were processed

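The deposited table holds the authors' log2 ratio of the channels of each spot on each array. Per the submitters' processing notes limma was used, in a version not given. How background was corrected, how arrays were normalized, which way the ratio runs and why spots are empty is not given in the sources used here. Medians of the arrays were between 0.0007 and 0.0125, and no sign was changed. The RNA, 1.5 µg of it, was amplified before labelling, per the labels' protocols.

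Spots were named through the platform annotation, with symbols updated through the Release 6 RefSeq gene table (12533 spots by gene ID, 120 by accession). The build of the arrays is not given, so no coordinates are printed, and no sequences were used here. Spots with values on all 4 arrays and 1 symbol were averaged per gene, and swapped arrays were averaged per replicate. A moderated test of the 2 replicate means against 0 was run in limma 3.58.1 under R 4.3.3 (eBayes after lmFit, two-sided, Benjamini-Hochberg over 4312 genes, passed at adjusted p under 0.05). Prior degrees of freedom were 48.9 and the prior SD 0.229. The procedure was tested on simulated data. An exact sign-flip test of 2 replicates cannot go below p = 0.5.

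Members and lists were chosen with earlier results of these data known. Of the list symbols, 5 were not matched. All 8 measured members are named. From each network list, genes past the test are named, and others as examples after their values were seen. Spot intensities were not used here. Precision is limited by the number of arrays.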

Additional observations from a re-analysis of the deposited data

How the results depend on the processing

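Hsp26, Hsp27 and Hsp70Bc passed with a positive ratio in every alternative that used a moderated limma test, and Hsc70-5 passed with a negative one in all of these except the arrays that had the mutant in Cy3 taken alone. Tested gene by gene without moderation, 0 genes and 0 members passed on either side. At an unadjusted p under 0.05 there were 354 genes and 1 member (Hsp70Bc, a mean over 17 spots). The 2-fold rule with the same sign on all 4 arrays kept 9 positive and 27 negative genes and 0 members on either side. With the 4 arrays as independent samples 1082 genes passed with a positive and 986 with a negative ratio. With a dye term 821 passed with a positive ratio, and with arrays scaled to equal spread 823. In each of these 3 settings 3 members passed with a negative ratio, namely Hsc70-5, Hsc70-3 and Hsp60A. The independent-sample and dye-term settings count the swapped arrays of 1 RNA as separate samples. With the arrays of each replicate kept as a block, 1 member passed with a negative ratio. With only the arrays that had the mutant in Cy3, 0 members passed with a negative ratio by limma (2 at an unadjusted p under 0.05), and on those with the mutant in Cy5 alone 2 did. The members' median was 0.069 with each array centred on its median, 0.111 with the mutant in Cy3 alone and 0.049 with the mutant in Cy5 alone. DnaJ-1 turned to -0.0033 with scaled arrays and to -0.057 with the mutant in Cy3 alone, and did not pass in either. The cause of these shifts was not tested. Leaving out a replicate leaves 1 sample and no test, and apart from DnaJ-1 (-0.09 in replicate 1 alone) every member kept its sign. The Hsp70Bc spot outside the runs was taken alone after the data were seen.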

Other observations

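The stress-responsive ubiquitin genes differed from each other. Ubi-p5E, a polyubiquitin gene, had no value on 1 array of replicate 1 and so was left out of the gene test. Its log2 ratios were -0.91 in replicate 1 and -2.23 and -1.63 in replicate 2, all negative. Over the 5752 genes with at least 1 array of each replicate (23.1% of which passed), its mean was -1.42 ± 0.72, a 2.67-fold difference (limma adjusted p = 4.90e-10). The other polyubiquitin gene, Ubi-p63E, had 0.22 in replicate 1 and -0.20 in replicate 2 and a mean of 0.01, and did not pass (limma adjusted p = 0.965). These genes were picked after their values were seen, and polyubiquitin repeats are alike between the genes, so their spots may share signal.

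Other chaperone genes had values on only a part of the arrays. Trap1, the mitochondrial Hsp90, had -0.25 and -0.24 in replicate 1 and -0.30 on 1 array of replicate 2. It was negative like Hsc70-5 and Hsp60A, and did not pass in the wider set (limma adjusted p = 0.207). CG9920 and Spg7, of the mitochondrial list, had mixed signs. CG9920 had 0.11 and -0.20 in replicate 1 and -0.05 in replicate 2, and Spg7 had -0.19 in replicate 1 and 0.12 in replicate 2. Cdc37, which delivers kinases to Hsp90, had 0.17 and 0.26 in replicate 1 and 0.48 in replicate 2 (limma adjusted p = 0.0994). Hsp110, an exchange factor for Hsp70, had -0.15 in replicate 1 and 0.13 and 0.02 in replicate 2.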
